A study of Homo sapiens with 4 samples.

Results

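Receptor tyrosine kinases relevant to glioma were read by 16 of the 440 antibodies analysed, namely 8 antibodies to total receptors and 8 to phosphorylated sites. The members were every row for EGFR, HER2, HER3, c-Met, PDGFR-b, IGF1R, the insulin receptor, VEGFR2, c-Kit and EphA2, taken by name. 9 receptors had at least 1 row. c-Met was read at its phosphorylated site only, while total c-Met and PDGFR-b were not analysed here. The antibodies were matched to the human genes EGFR, ERBB2 (HER2), ERBB3 (HER3), MET (c-Met), IGF1R (IGFRb), INSR (IR-b), KDR (VEGFR-2), KIT (c-Kit) and EPHA2 in the RefSeq gene table.

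The material was LN229, an established human glioblastoma cell line, and levels were read by reverse phase protein array (RPPA), in which cell lysates are printed as spots and each slide is probed with a different antibody. 2 samples were left untreated and 2 were exposed to 300 nM salmon calcitonin (sCT, a peptide hormone that binds the calcitonin receptor) for 60 min. The untreated samples are labelled 0 min, and no untreated sample was taken at 60 min. A difference between the groups below therefore cannot be told apart from one of time or handling. The study describes biological duplicates without saying whether these were separate cultures, so the p-values below measure only the spread between these samples. A level is the deposited relative value, which compares samples for a given antibody and does not rank receptors against each other. In a lysate, fewer cells that carry a protein and less of it per cell cannot be told apart, and a level that stays near its control value cannot be told from one near background because spot intensities were not used here.

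Receptor tyrosine kinases are membrane proteins whose outer part binds a growth factor and whose inner kinase then phosphorylates tyrosines on the receptor chains. Those phosphotyrosines dock adaptors such as Shc, Gab and IRS proteins, which pass the signal to the PI3K and AKT and to the RAS and ERK pathways, and phosphatases and endocytosis end it. EGFR is the receptor most often amplified in glioblastoma, and EphA2, Met, PDGF and IGF1 receptors have been studied there as parallel inputs.

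Across the 440 antibodies the levels ran from 0.0450 to 6.88, and the median SD between replicates on the log2 scale was 0.05 in untreated and 0.04 in sCT samples. Of 3 glioma and neural markers, Sox2 had a log2 fold change of -0.91, CD44 0.26 and Vimentin -0.22. None of the 5 epithelial and 4 immune or endothelial markers was called in either direction, beside 55.0% of all 440 antibodies. Among 6 loading controls 3 (50.0%) were higher in sCT samples and none was lower, beside 21.4% higher and 33.6% lower of all antibodies. The loading controls had a median log2 fold change of 0.12 and a range of -0.15 to 0.57. The median level of each sample over the panel was near 1. Centring on the loading controls moved the median of all antibodies by -0.16 and quantile normalization moved it by 0.11 on the log2 scale.

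The first question was which receptors and receptor sites changed within the hour of sCT. At an adjusted p of 0.05 (limma, Benjamini-Hochberg over all 440 antibodies), 9 of 16 receptor antibodies were called, 6 lower and 3 higher. The panel as a whole gave 55.0% called, 33.6% lower and 21.4% higher, against 56.2%, 37.5% and 18.8% of the receptor antibodies, so the shares called were close to those of the panel. The median log2 fold change of the 16 was -0.05, beside 0.02 for the panel. Levels of the untreated and sCT pairs did not overlap for 15 of 16 receptor antibodies, beside 85.9% of the panel. With 2 samples against 2 an exact two-sided permutation test cannot go below 0.333, so each call rests on the spread that limma pools over antibodies. Under the threshold named in the study, an absolute log2 fold change of 0.58 with an unadjusted p of 0.05, 5 receptor antibodies passed (4 lower and 1 higher), beside 21.6% of the panel. These were EphA2_pS897, HER2, EphA2 and IGFRb, which fell, and IR-b, which rose.

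**Figure D1:**
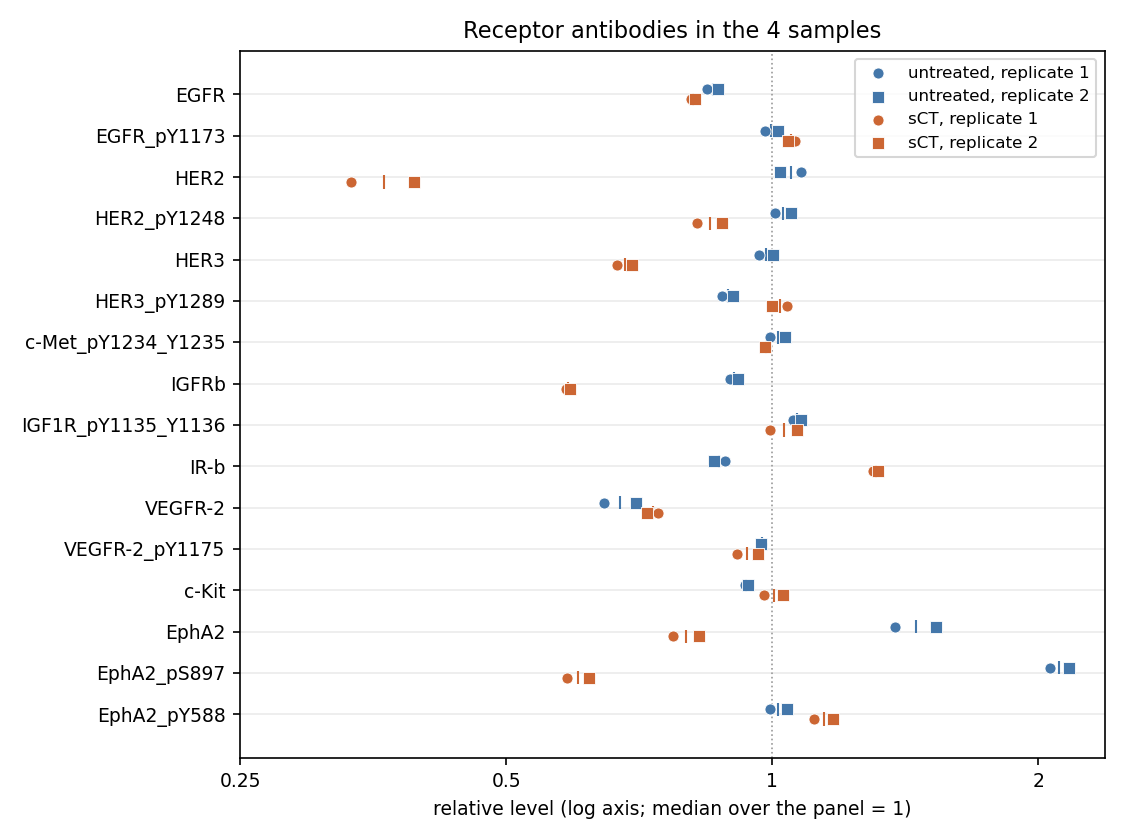
Relative level of each of the 16 receptor antibodies in the 2 untreated and 2 sCT samples (logarithmic axis, points are samples and short lines are group means). EphA2_pS897 lies at 2.06 and 2.17 in untreated and at 0.586 and 0.620 in sCT samples, HER2 at 1.08 and 1.02 and at 0.334 and 0.393, and IR-b at 0.884 and 0.860 and at 1.30 and 1.32.

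**Figure D2:**
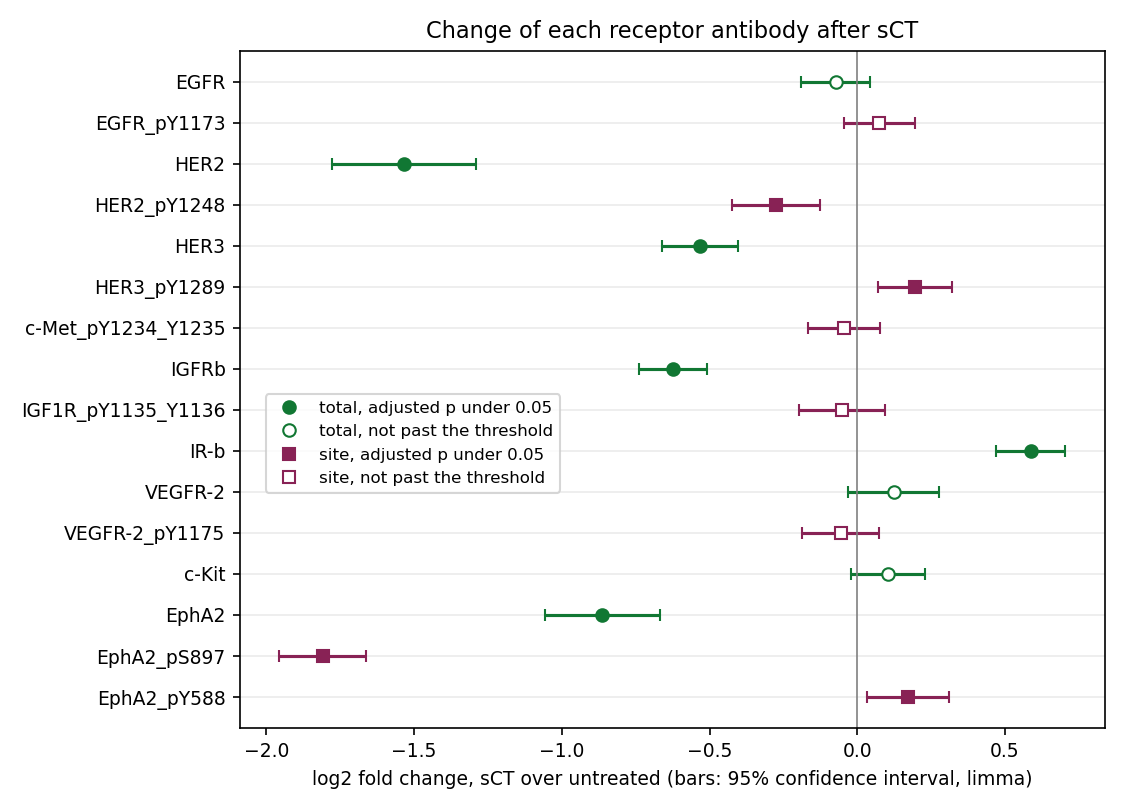
Log2 fold change of sCT over untreated for the 16 receptor antibodies, with bars for the 95% confidence interval of the limma fit (2 samples against 2). Intervals run from -1.96 to -1.66 for EphA2_pS897 at one end and from 0.47 to 0.70 for IR-b at the other, and 7 antibodies were not called.

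HER2 and HER3 fell while EGFR, of the same family, was not called. HER2 (ERBB2) binds no known ligand and acts as the preferred dimer partner of the other family members. Its level was 1.08 and 1.02 in the untreated samples and 0.334 and 0.393 in the sCT samples. Both treated samples lay far below both controls, and the level fell by 65.5% (log2 fold change -1.53, SE 0.09, 95% interval -1.78 to -1.29, adjusted p = 0.000340). It ranked 28 from the lowest fold change of the 440 antibodies.

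HER3 (ERBB3), a receptor with a weak kinase that binds heregulin and recruits PI3K through its tyrosines, measured 0.966 and 1.003 in untreated and 0.668 and 0.694 in sCT samples. The groups were apart, and the level fell by 30.8% (log2 fold change -0.53, SE 0.05, adjusted p = 0.00105). EGFR, the receptor for EGF, measured 0.843 and 0.869 without and 0.810 and 0.817 with sCT. Both treated values lay just below the controls, but the difference of -0.07 on the log2 scale (95% interval -0.19 to 0.04, adjusted p = 0.208) was not called. On the levels as deposited, its interval did not reach the changes of HER2 or HER3. The interval covers only the spread between replicates. EGFR was -0.23 under loading control centring and 0.28 under quantile normalization, both outside that interval.

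The tyrosine sites of these 3 receptors moved little. HER2_pY1248, a tyrosine in the carboxyl tail that HER2 phosphorylates itself, measured 1.01 and 1.05 in untreated and 0.821 and 0.878 in sCT samples. The site was called lower at -0.28 on the log2 scale (SE 0.06, adjusted p = 0.0135), although the adjusted p was 0.0679 without untreated replicate 2 and 0.0788 without sCT replicate 1. HER3_pY1289, a docking tyrosine for PI3K, went the other way, from 0.878 and 0.903 to 1.04 and 1.0001. The groups did not overlap and the site was called higher (log2 fold change 0.20, adjusted p = 0.0234). That call was lost whenever any replicate was left out (adjusted p 0.0613 to 0.127) and under both scalings, at 0.36 (adjusted p = 0.0604) with quantile normalization and 0.04 (adjusted p = 0.731) with loading control centring. EGFR_pY1173, a tail tyrosine that docks Shc, measured 0.981 and 1.01 without and 1.06 and 1.04 with sCT, a difference of 0.07 (95% interval -0.05 to 0.19, adjusted p = 0.212) that was not called.

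EphA2 held the largest difference among the 16 rows. EphA2 is an ephrin receptor that is abundant in glioblastoma, and it has a ligand-driven mode read at tyrosines of the juxtamembrane segment and a ligand-independent mode read at the serine of EphA2_pS897, a substrate of AKT, RSK and PKA. EphA2_pS897 stood at 2.06 and 2.17 in untreated samples and at 0.586 and 0.620 in sCT samples. Both treated samples lay far below both controls. The site fell by 71.5% (log2 fold change -1.81, SE 0.06, 95% interval -1.96 to -1.66, adjusted p = 0.000113), rank 12 from the lowest of all antibodies.

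Total EphA2 measured 1.38 and 1.53 without and 0.771 and 0.826 with sCT. The groups were apart, and the level fell by 45.0% (log2 fold change -0.86, SE 0.07, 95% interval -1.06 to -0.67, adjusted p = 0.000856). EphA2_pY588, a juxtamembrane tyrosine, measured 0.993 and 1.04 in untreated and 1.12 and 1.17 in sCT samples. It was called higher at 0.17 on the log2 scale (SE 0.05, adjusted p = 0.0468), close to the threshold. The call was lost without any replicate (adjusted p 0.0777 to 0.208), under quantile normalization (adjusted p = 0.0765) and under loading control centring, where the difference was 0.01 (adjusted p = 0.920).

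The beta chains of the IGF1 receptor and the insulin receptor, which are closely related and can form hybrids, moved in opposite directions. IGFRb measured 0.895 and 0.915 in untreated and 0.584 and 0.590 in sCT samples. It fell by 35.1% with no overlap (log2 fold change -0.62, SE 0.04, 95% interval -0.74 to -0.51, adjusted p = 0.000486). Under quantile normalization the difference was -0.24 (adjusted p = 0.0856), so that scaling ended the call.

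IR-b measured 0.884 and 0.860 without and 1.30 and 1.32 with sCT, the only 1 of the 8 receptor totals called higher. Both treated samples lay well above both controls, a rise of 50.3% (log2 fold change 0.59, SE 0.04, 95% interval 0.47 to 0.70, adjusted p = 0.000603), rank 11 from the highest of all antibodies. The rise was 0.89 under quantile normalization and 0.43 under loading control centring. IGF1R_pY1135_Y1136, the pair of tyrosines in the activation loop of the IGF1 receptor kinase, measured 1.06 and 1.08 in untreated and 0.994 and 1.07 in sCT samples. It was the only receptor row whose groups overlapped (log2 fold change -0.05, 95% interval -0.20 to 0.09, adjusted p = 0.454).

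The remaining receptors were not called. VEGFR-2, the main VEGF receptor of endothelial cells, measured 0.645 and 0.700 without and 0.742 and 0.722 with sCT, a difference of 0.12 on the log2 scale (95% interval -0.03 to 0.28, adjusted p = 0.134). Its groups were narrowly apart, and the value depended most on scaling of all the receptors: it was 0.98 (adjusted p = 0.00535) under quantile normalization and -0.03 (adjusted p = 0.764) under loading control centring. VEGFR-2_pY1175, the tyrosine that docks phospholipase C gamma, measured 0.975 and 0.971 in untreated and 0.911 and 0.963 in sCT samples (log2 fold change -0.06, adjusted p = 0.371).

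c-Kit, the receptor for stem cell factor, measured 0.930 and 0.938 without and 0.980 and 1.03 with sCT. The treated samples were the higher ones, but the difference of 0.10 (95% interval -0.02 to 0.23) had an adjusted p of 0.125 and turned to -0.05 under loading control centring. c-Met_pY1234_Y1235, the activation loop tyrosines of the receptor for hepatocyte growth factor, measured 0.994 and 1.03 in untreated and 0.984 and 0.982 in sCT samples. The treated values lay just under the controls, and the difference of -0.05 (95% interval -0.17 to 0.08, adjusted p = 0.429) was not called.

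**Figure D3:**
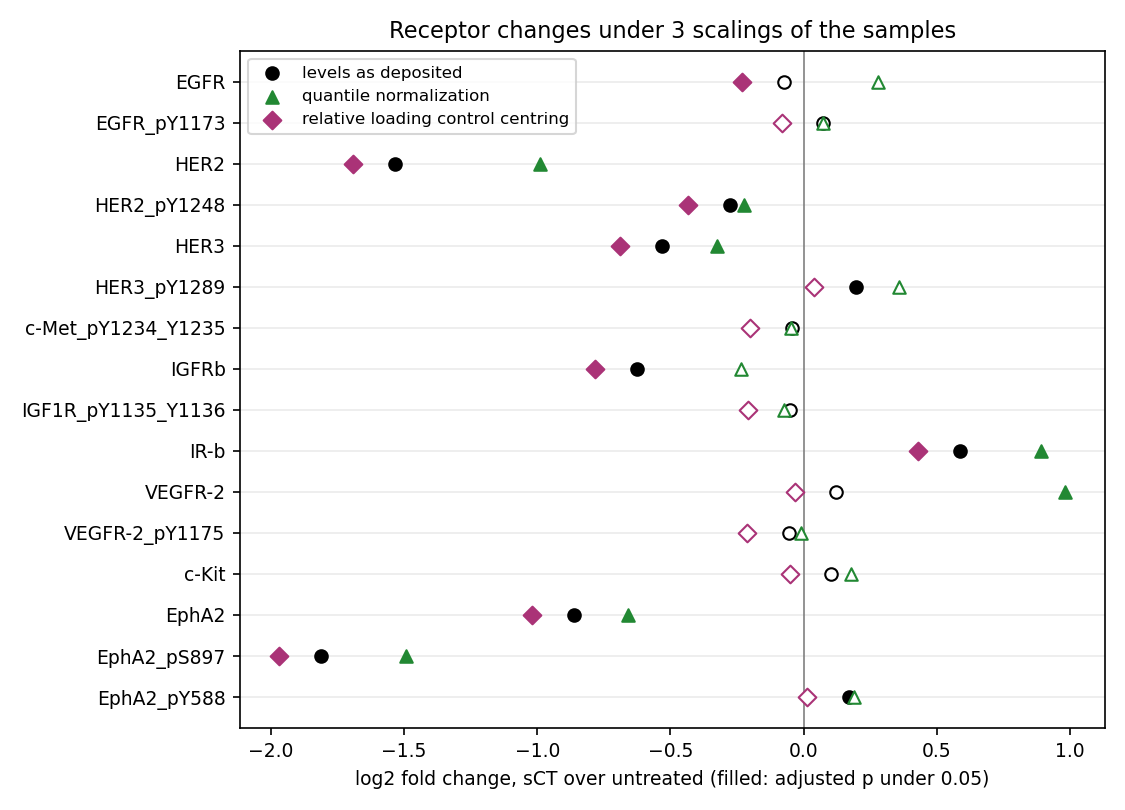
Log2 fold change of each receptor antibody under the levels as deposited, quantile normalization and relative loading control centring. HER2, HER3, EphA2 and EphA2_pS897 are below 0 and IR-b above 0 under all 3, while VEGFR-2 runs from -0.03 to 0.98 and EGFR from -0.23 to 0.28.

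A second question was whether each site moved with its receptor, read as the log2 site level minus the log2 total level in the same sample. 7 receptor sites had a total antibody, among 64 pairs of site and total on the panel. Of the 7, 5 were called, 4 higher and 1 lower, beside 65.6% of all pairs called, 31.2% higher and 34.4% lower. The untreated and sCT values were apart for all 7, as they were for most of the 64 pairs, so this did not mark out the receptor pairs. For single antibodies the share apart was 85.9% of the panel. The exact two-sided permutation p was 0.333 for each of the 7, the smallest it can give. A difference from the total is in relative units of 2 antibodies, so its change between groups can be read and its level cannot.

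The 2 EphA2 sites parted. EphA2_pS897 relative to total EphA2 was 0.58 and 0.50 in untreated and -0.40 and -0.42 in sCT samples on the log2 scale. It fell by 0.95 beyond the fall of the total (SE 0.06, 95% interval -1.11 to -0.79, adjusted p = 0.000169). EphA2_pY588 relative to total went from -0.47 and -0.56 to 0.53 and 0.50. That is a rise of 1.03 (SE 0.06, adjusted p = 0.000150), with most of it from the fall of the total and 0.17 from the site itself.

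HER2_pY1248 relative to HER2 was -0.10 and 0.04 in untreated and 1.30 and 1.16 in sCT samples. It rose by 1.26 (SE 0.09, 95% interval 1.03 to 1.48, adjusted p = 0.000188) although the site's own level fell, because the total fell further. HER3_pY1289 rose by 0.73 relative to HER3 (SE 0.07, adjusted p = 0.000477). The IGF1 receptor site rose by 0.57 relative to IGFRb (SE 0.06, adjusted p = 0.000916), and that call was lost under quantile normalization (0.16, adjusted p = 0.178). In these 3 pairs and that of EphA2_pY588 the total moved more than the site, and the signal of these site antibodies over background was not known here. EGFR_pY1173 relative to EGFR differed by 0.15 (adjusted p = 0.0688) and VEGFR-2_pY1175 relative to VEGFR-2 by -0.18 (adjusted p = 0.0960), and neither was called. The EGFR pair was called under a trend and robust fit (adjusted p = 0.0159), which gave 6 receptor pairs called. The VEGFR-2 pair was -0.99 (adjusted p = 0.00261) under quantile normalization.

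**Figure D4:**
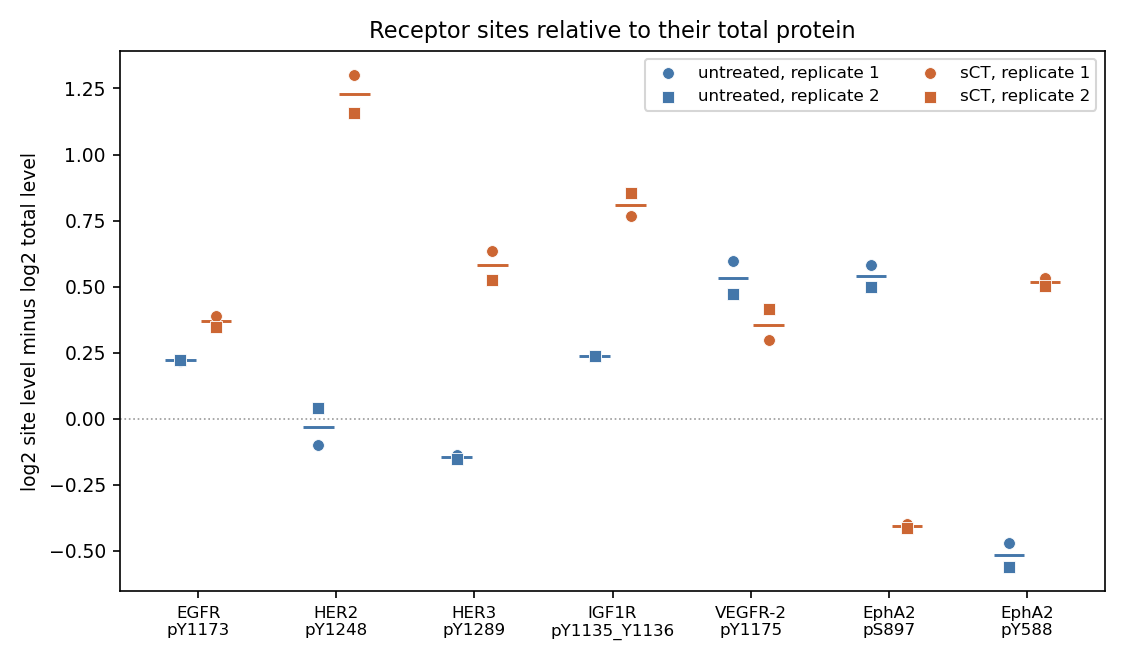
Log2 level of each receptor site minus that of its total in every sample, for the 7 sites with a total antibody. EphA2_pS897 drops from 0.58 and 0.50 to -0.40 and -0.42, whereas EphA2_pY588 and HER2_pY1248 lie higher in both sCT samples.

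The receptor totals and sites are set beside all totals and sites of the panel, with no test of a difference. Of 8 receptor totals 4 fell and 1 rose, with a median log2 fold change of -0.30, beside 106 lower, 85 higher and a median of 0.05 for all 352 totals. Of 8 receptor sites 2 fell and 2 rose with a median of -0.05, beside 42 lower, 9 higher and -0.16 for all 88 sites. The 7 receptor tyrosine sites lay within -0.28 to 0.20, with 1 lower and 2 higher. The 12 tyrosine sites of other proteins gave 1 lower and 3 higher, with a median of 0.08.

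Receptors are large surface proteins, and both features were set beside them. The 22 other cell surface proteins gave 2 lower (9.09%) and 9 higher (40.9%), beside 33.6% and 21.4% of the panel, with a median of 0.16. The 11 calls became 5 (2 lower and 3 higher) under loading control centring, 6 when untreated replicate 2 was dropped and 7 when either sCT sample was. Among these B7-H3 had levels of 0.900 and 0.900 in untreated and 1.38 and 1.41 in sCT samples, while Connexin-43, a gap junction protein, went from 0.600 and 0.702 to 0.115 and 0.225. The 20 antibodies to other proteins over 150 kDa gave 11 lower (55.0%) and 1 higher (5.00%), with a median of -0.44 and a range of -4.11 to 0.33. This list was written after earlier results of these same data had shown large proteins lower with sCT. Its share of falls is therefore no independent comparison for size. With the lowest 10% of antibodies left out, the 12 calls of this list became 6 (5 lower and 1 higher). IRS1, IRS2 and Tuberin of this list were also in the pathway lists. Any part of protein size in the falls of HER2 and HER3 was not tested.

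The 4 antibodies to other receptor tyrosine kinases gave 1 lower and 1 higher. The list held no higher call under quantile normalization, under loading control centring or with any sample left out. Axl, a TAM family receptor that binds GAS6, fell from 1.31 and 1.29 to 0.834 and 0.821 (log2 fold change -0.65, adjusted p = 0.000432). DDR1, a collagen receptor, rose by 0.21 (adjusted p = 0.0213), and its site DDR1_pY513 had a log2 fold change of 0.00 (adjusted p = 0.984). Tyro3 had a log2 fold change of -0.16 (adjusted p = 0.326).

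Both antibodies to receptor ligands and their binding proteins were lower, beside 33.6% of the panel, and 1 of these calls was left when either sCT sample was dropped. Heregulin, the ligand of HER3, measured 1.03 and 1.01 without and 0.670 and 0.665 with sCT (log2 fold change -0.62, adjusted p = 0.000486). IGFBP2, which binds insulin-like growth factors and is a known glioma protein, measured 1.26 and 1.53 without and 1.04 and 1.03 with sCT. It was called lower at -0.43 (log2, adjusted p = 0.0213) and a wide spread between the untreated samples.

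The proteins that dock on the receptors gave 5 lower and 3 higher of 15, with a median of 0.04. PTPN12, a phosphatase that acts on several receptor tyrosine kinases, went from 0.799 and 0.772 to 0.224 and 0.237 (log2 fold change -1.77, adjusted p = 0.000113). Gab2, a docking protein for PI3K and SHP2, went from 0.833 and 0.806 to 0.251 and 0.300 (-1.58, adjusted p = 0.000351). These were the largest falls of the list, and in both the groups lay far apart. With the lowest 10% of antibodies left out, the 8 calls of this list became 4 (1 lower and 3 higher). Src_pY527, the inhibitory tyrosine of Src, rose by 0.58 (adjusted p = 0.00589), and Src_pY416, the activating one, by 0.40 (adjusted p = 0.00235), beside 0.25 for total Src (adjusted p = 0.0103). The other 3 that fell were SHP2 (-1.10), the insulin receptor substrate IRS2 (-1.03) and Shc_pY317 (-0.82), while IRS1 had a log2 fold change of 0.10 (adjusted p = 0.114) and SHP-2_pY542 of -0.05 (adjusted p = 0.340).

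The PI3K and AKT list gave 12 lower (50.0%) and 5 higher (20.8%) of 24, beside 33.6% and 21.4% of the panel. Its median log2 fold change was -0.20. Its 9 sites gave 6 lower (66.7%) and none higher, with a median of -0.57, beside 47.7% lower and 10.2% higher of all 88 sites. The largest falls were those of PHLPP, an AKT phosphatase (1.49 and 1.33 to 0.390 and 0.415, log2 fold change -1.81, adjusted p = 0.000146), and FOXO3, a transcription factor that AKT inhibits (-1.74, adjusted p = 0.000141). FoxO3a_pS318_S321 fell by 0.22 (adjusted p = 0.0295), less than its total. The largest rise of the list was that of INPP4b, a lipid phosphatase that opposes PI3K, from 1.20 and 1.19 to 1.71 and 1.74 (adjusted p = 0.000729). The AKT sites Akt_pS473 (-1.47, adjusted p = 0.000523) and Akt_pT308 (-1.04, adjusted p = 0.000702) fell, while the pan-Akt antibody had a log2 fold change of 0.03 (adjusted p = 0.590). The isoforms differed: total Akt1 rose by 0.19 (adjusted p = 0.0223) and total Akt2 fell by 0.81 (adjusted p = 0.000486). Akt1_pS473 fell by 0.67 (adjusted p = 0.0359), and Akt2_pS474 was not called (-0.15, adjusted p = 0.0693). Relative to its total, Akt1_pS473 fell by 0.86 (adjusted p = 0.0154) and Akt2_pS474 rose by 0.66 (adjusted p = 0.000409).

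The RAS, RAF, MEK and ERK list gave 6 lower (35.3%) and 4 higher (23.5%) of 17, beside 33.6% and 21.4% of the panel, with a median of 0.09. The 10 calls became 3 (2 lower and 1 higher) without sCT replicate 1 and 6 without sCT replicate 2. B-Raf fell from 0.995 and 0.934 to 0.547 and 0.589 (log2 fold change -0.76, adjusted p = 0.000739), and B-Raf_pS445 had a log2 fold change of 0.13 (adjusted p = 0.0903). p90RSK_pT573, on a kinase downstream of ERK, fell by 0.76 (adjusted p = 0.0104), with total RSK at 0.09 (adjusted p = 0.161). MAPK_pT202_Y204, the activating sites of ERK, rose from 2.96 and 3.85 to 6.88 and 5.42 (log2 fold change 0.86, adjusted p = 0.0132). Total p44-42-MAPK rose by 0.38 (adjusted p = 0.00378). The STAT list of 4 gave 2 lower (50.0%) and none higher, beside 33.6% and 21.4% of the panel. In it Stat5a (-0.76, adjusted p = 0.000702) and Jak2 (-0.23, adjusted p = 0.0117) fell, while Stat3 (0.07) and Stat3_pY705 (0.09) were not called. The STAT list had 1 call when untreated replicate 2 or either sCT sample was dropped. The 6 lists of ligands, other receptors, docking proteins and the 3 pathways together held 66 antibodies, of which 28 were lower (42.4%) and 13 higher (19.7%), beside 33.6% and 21.4% of the panel.

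**Figure D5:**
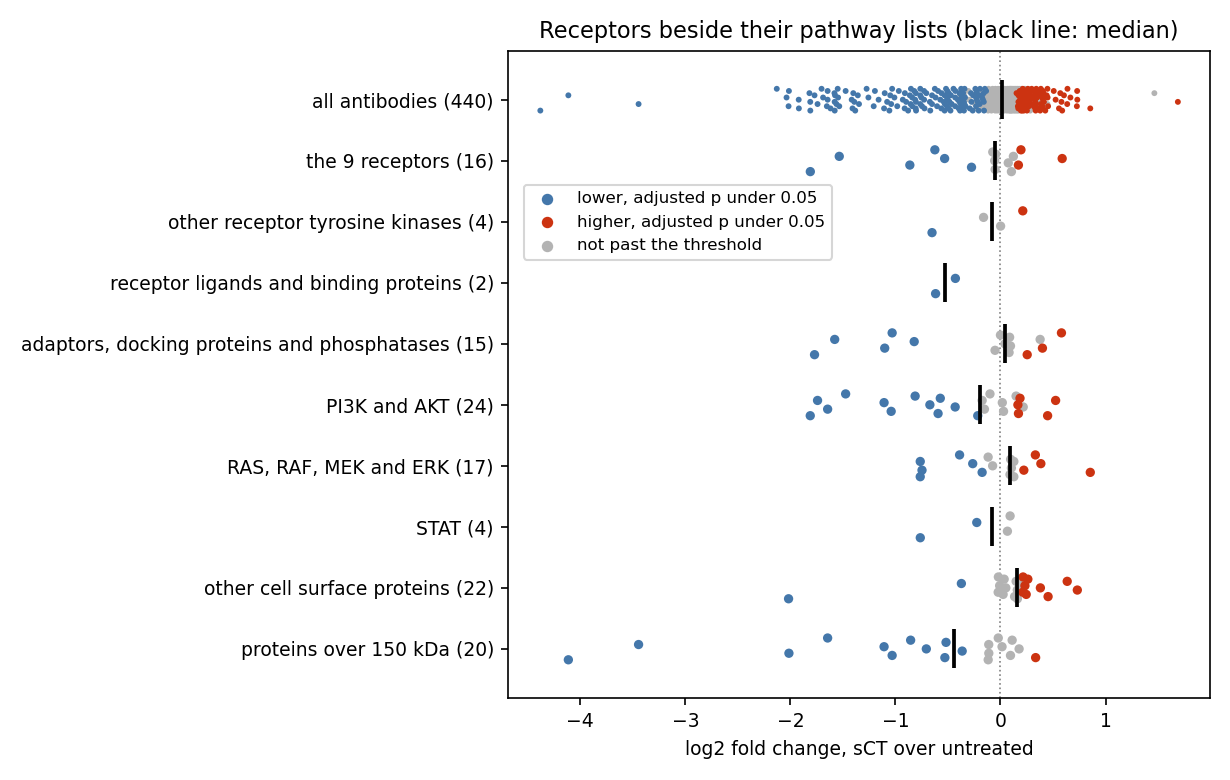
Log2 fold change of every antibody in the receptor and pathway lists beside all 440 antibodies (points are antibodies, black lines are medians). The PI3K and AKT list has its median at -0.20 and the other cell surface proteins at 0.16, beside 0.02 for the panel.

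For each total receptor the antibodies with the most similar profile over the 4 samples were found as the smallest root mean square difference of log2 levels, each taken relative to its own mean. HER2 was closest to Gab2 (0.0257), then Chk1 (0.0498) and 53BP1 (0.0564). IGFRb was closest to Heregulin (0.0233), Axl (0.0271) and Rictor (0.0421), and HER3 to mTOR (0.0270), VASP (0.0280) and PDK1_pS241 (0.0287). EphA2 was closest to HMHA1 (0.0345), Aurora-B (0.0348) and Akt2 (0.0376). IR-b was closest to B7-H3 (0.0283), INPP4b (0.0324) and MERIT40 (0.0535). Of the receptors that were not called, EGFR was closest to COG3 (0.00824) and c-Myc (0.0109), VEGFR-2 to PDHK1 (0.0124), Raptor (0.0194) and Mitofusin-2 (0.0201), and c-Kit to ATM_pS1981 (0.00538), PKC-delta_pS664 (0.00940) and Caspase-8-cleaved (0.0128). With 4 samples in 2 groups, likeness here mostly means a group difference of the same size.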

How the data were processed

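Per the study's methods, serially diluted lysates were printed on nitrocellulose slides, probed with 1 antibody each and read colorimetrically. The authors deposited 1 relative level per antibody and sample, taken here as a linear ratio. The steps between spot intensities and these levels, and any scaling, are not given in the sources used here. The number of samples, 2 per group, limits the precision.

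Groups were taken from the sample labels. log2 levels of all 440 antibodies were fitted with limma 3.58.1 in R 4.3.3 (empirical Bayes, prior df 2.59, residual df 2) with Benjamini-Hochberg adjustment over all antibodies. Site minus total was fitted in the same way over 64 pairs, matched by name with a table of aliases. A call is an adjusted p under 0.05. Named antibodies were every receptor row, up to 2 called rows with the largest falls and 2 with the largest rises in each pathway list, the partners of these as total or site, and the 3 closest profiles of each total receptor. SHP2, IRS2, Shc_pY317, Akt_pS473, Akt_pT308, Akt1, Akt1_pS473, B7-H3, Connexin-43, Stat3 and Tyro3 were named after their values were seen. Some antibodies that this rule picks are not reported here. The members and lists were chosen with earlier results of these data known. On 20 simulated data sets of 440 antibodies, 100 of them changed by 0.8 (log2), the fit recovered a median of 96.0% with 3.96% false calls. The simulated noise was independent between antibodies, fewer antibodies changed than were called here, and several receptor calls were smaller than 0.8. These rates therefore need not hold for the present data. Alternatives were quantile normalization, loading control centring, a filter leaving out 10% of antibodies, trend and robust fits, an unequal-variance test, the study's fold threshold, a replicate block and leaving out each sample. Figures were drawn with matplotlib 3.10.9.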

Additional observations from a re-analysis of the deposited data

How the results depend on the processing

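HER2, HER3, IR-b, EphA2 and EphA2_pS897 kept their direction and their call at an adjusted p of 0.05 in every limma setting run that held them. The 9 receptor calls became 5 under the study's fold rule, 6 to 7 with a sample left out and 0 with an unequal-variance test per antibody (7 at an unadjusted p of 0.05), where the adjusted p of the receptors started at 0.0723. The 41 calls over the pathway lists became 22, 25 to 36 (25 without sCT replicate 1 and 27 without sCT replicate 2) and 0 (27 unadjusted) in the same 3 settings. The receptor calls were 7 under quantile normalization, 8 (7 lower and 1 higher) under loading control centring and 7 under the low-value filter, which left out HER2, IGFRb and VEGFR-2. Directions turned in the following cases, the cause of which was not tested. Under quantile normalization EGFR was 0.28 and its site minus total -0.20. Under loading control centring EGFR_pY1173 was -0.083, VEGFR-2 -0.034 and c-Kit -0.053. IGF1R_pY1135_Y1136 ran from -0.10 to 0.00083 with a sample left out, above 0 without sCT replicate 1. EGFR was called lower (-0.23, adjusted p = 0.0414) under loading control centring. The labels give both groups the same replicate numbers and do not say whether samples of 1 number were paired. The replicate 1 minus 2 differences of both groups correlated at r = 0.586 across antibodies, which the main fit does not model. With a replicate block 9 receptors, 41 pathway antibodies and 5 site pairs were called. The alternative of another total antibody gave no value, because no receptor had several.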

Other observations

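Other proteins that handle receptors were read outside the lists, except FRS2-a_pY196, which was among the tyrosine sites of other proteins. The following were chosen after their values were seen. Caveolin-1, a membrane scaffold of caveolae, measured 0.766 and 0.887 in untreated and 0.574 and 0.566 in sCT samples (log2 fold change -0.53, adjusted p = 0.00587 by limma). Fibroblast growth factor readouts were not called, with log2 fold changes of 0.17 for FGF-basic (adjusted p = 0.111) and 0.06 for FRS2-a_pY196 (adjusted p = 0.276), the adaptor of the FGF receptors. The recycling GTPases Rab11 (0.11, adjusted p = 0.0992) and Rab25 (0.09, adjusted p = 0.209) were not called either. CSK, the kinase that phosphorylates the inhibitory tyrosine of Src, rose by 0.21 (adjusted p = 0.0160), and the tyrosine kinase c-Abl fell from 1.02 and 1.03 to 0.740 and 0.748 (log2 fold change -0.46, adjusted p = 0.00105). FN14, the receptor for TWEAK, which is not a tyrosine kinase, fell from 1.63 and 1.74 to 0.708 and 0.755 (log2 fold change -1.21, adjusted p = 0.000207).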
